A study of Mus musculus with 6 samples.

Results

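RNA levels of 39 genes of mitosis and the spindle checkpoint were examined in Lewis cells, a mouse lung carcinoma line, after treatment with SD70, described by the study as an inhibitor of the histone demethylase KDM4C. The genes were listed by name for their roles in dividing cells, with earlier results of these data known, so the list is not independent of the data. All 39 were found among the 16081 genes listed for every sample, and all 39 were among the 11552 genes with enough reads to be tested. The 6 samples were 3 labelled DMSO, the solvent control, and 3 labelled SD70. Both groups were Lewis cells grown in the same medium and treated for 24 hours. The extraction protocol in the labels, however, describes ground tissue and not a culture, and cell type markers, epithelial ones included, are given at the end for that reason. The labels call the source mouse lung adenocarcinoma cells and give neither the dose of SD70 in this experiment nor whether the replicates were separate cultures. The study states in general that experiments were independently repeated 3 or more times, without tying this to the RNA samples. The p-values therefore measure the spread between these samples alone. Poly(A) RNA was sequenced, with 15276744 to 17060424 counts per sample assigned to genes.

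A cell enters mitosis when cyclin B and CDK1 are switched on by CDC25 phosphatases, and Polo and Aurora kinases then drive spindle assembly and centrosome maturation. At each centromere a kinetochore binds spindle microtubules, and the spindle checkpoint, built from BUB, MAD and TTK proteins, holds back the anaphase-promoting complex and its activator CDC20 until every chromosome is attached. Separase then cuts cohesin, and the chromosomal passenger complex and the central spindle direct the cell to divide. The RNAs of many of these genes rise in G2 and M phase under MYBL2, FOXM1 and the MuvB complex, so that in RNA from whole cultures a smaller share of cells in those phases and less RNA per cell in those phases cannot be told apart.

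Most of the mitosis genes were lower with SD70, by modest amounts. At an adjusted p under 0.01 (edgeR, quasi-likelihood test, Benjamini-Hochberg over all genes tested), 30 of the 39 fell, where 24.2% of all genes tested fell. Ndc80 was the 1 member that rose, where 25.8% of all genes tested rose, and 8 members did not pass. The log2 fold change of SD70 against DMSO had a median of -0.34 over the members, with quartiles of -0.46 and -0.19, against a median of -0.00 and quartiles of -0.25 and 0.25 over all genes tested. The members ran from Plk1, which fell by 1.00, to Ndc80, which rose by 0.31. A fall of at least 0.5 on the log2 scale was called for 9 members (9.76% of all genes tested), with Incenp at -0.50 just short of it before rounding, and a fall of at least 1 was called for Plk1 alone (2.61% of all genes tested). A rise of at least 1 was called for 3.29% of all genes tested, and Ndc80 did not reach it. The 3 SD70 samples lay below all 3 DMSO samples in 31 members (31.6% of all genes tested) and above them in Ndc80 and Ccnb1 (32.8% of all genes tested), and the groups overlapped in 6. The counts by role below stand beside the same shares of all genes tested, 24.2% lower and 25.8% higher.

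**Figure D1:**
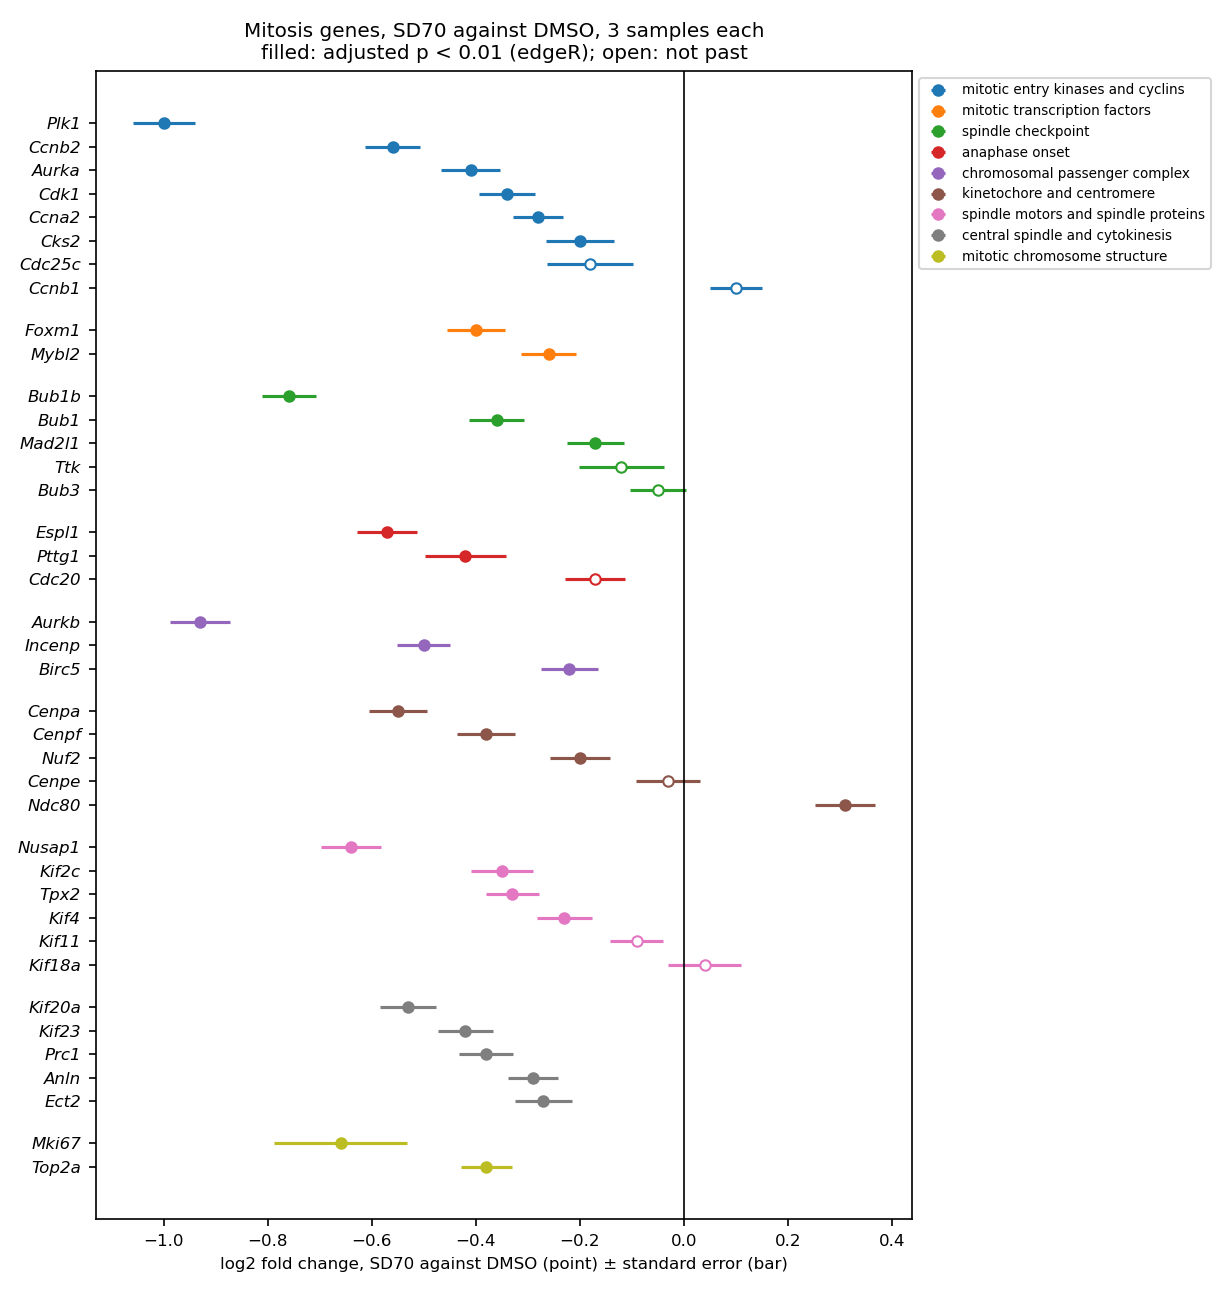
Log2 fold change of SD70 against DMSO with its standard error (x axis, n = 3 per group) for each of the 39 genes (y axis, grouped by role). Plk1, which fell by 1.00, lies farthest to the left, 30 genes are called lower, and Ndc80 at 0.31 is called higher.

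The share of all counts taken by the 39 genes was 0.733%, 0.71% and 0.709% in the DMSO samples, against 0.571%, 0.54% and 0.524% in those with SD70. The means were 0.718% ± 0.0137 and 0.545% ± 0.0238 (SD, n = 3 each), and the groups did not overlap. Top2a and Mki67 held the most counts, and without them the shares were 0.55%, 0.539% and 0.542% against 0.439%, 0.425% and 0.413%. Relative to the DMSO mean, the median member stood at -0.27 in SD70 replicate 1, -0.33 in replicate 2 and -0.38 in replicate 3 on the log2 scale, and between -0.02 and 0.03 in the DMSO samples. SD70 replicate 3 held the lowest of the 3 SD70 values in 26 members, and SD70 replicate 1 held the highest in 23. The coefficient of variation between replicates had a median of 3.61% with DMSO against 5.14% with SD70, and it was largest for Mki67 with SD70 at 15.5%.

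**Figure D2:**
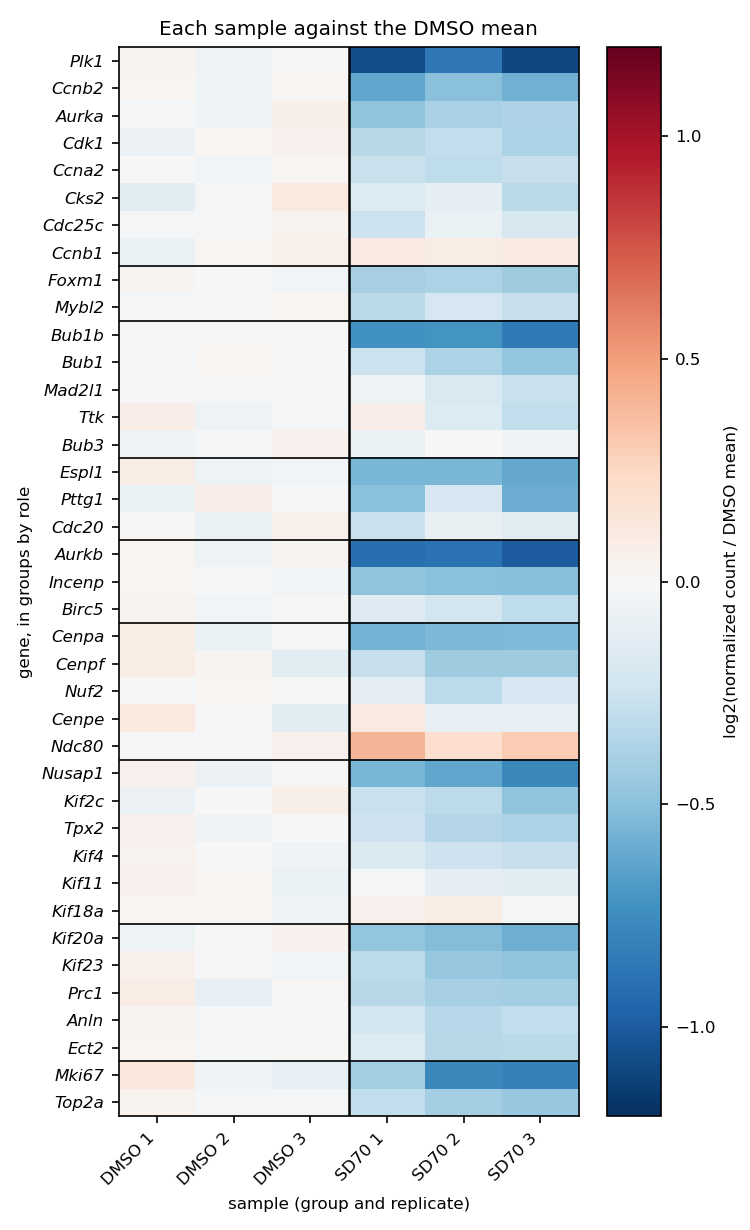
Log2 of each sample's normalised count relative to the DMSO mean of that gene, with the 39 genes as rows grouped by role and the 6 samples as columns. The SD70 columns are lower for most rows, least so in replicate 1 and most so in replicate 3, while the rows of Ndc80 and Ccnb1 are higher with SD70.

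Among the kinases and cyclins of mitotic entry, 6 of 8 members fell, with a median log2 fold change of -0.31, and their responses were unequal. Plk1 (gene 18817, chr7:122159435-122169884 on GRCm38.p6), the Polo kinase that acts in mitotic entry, spindle assembly and cytokinesis, had normalised counts of 1863, 1771 and 1831 with DMSO against 869, 1004 and 857 with SD70. The lowest DMSO sample was far above the highest SD70 sample. Plk1 fell by 1.00 on the log2 scale (SE 0.0601, adjusted p = 3.31e-16 edgeR's quasi-likelihood test, Benjamini-Hochberg adjusted over all genes tested, as in every adjusted p here), from 1822 ± 46.5 to 910 ± 81.7 (SD, n = 3). Its fold change sat at the limit of 1, so that without DMSO replicate 1 it was -0.98, without SD70 replicate 1 or SD70 replicate 3 it was -0.97, and the call at that limit was then lost.

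The mitotic cyclins separated from each other. Ccnb2 (gene 12442, chr9:70407689-70421554), which encodes cyclin B2, had 2613, 2483 and 2612 counts with DMSO against 1666, 1816 and 1727 with SD70, and it fell by 0.56 (SE 0.0527, adjusted p = 2.78e-11). Ccnb1 (gene 268697, chr13:100778739-100786486), which encodes cyclin B1, the main partner of CDK1 at mitotic entry, had 3746, 4031 and 4146 counts with DMSO against 4284, 4211 and 4255 with SD70. All 3 SD70 samples were thus above the DMSO samples, but the difference of 0.10 did not pass (SE 0.05, adjusted p = 0.0934). Within each sample, Ccnb1 had 1.43, 1.62 and 1.59 times the count of Ccnb2 with DMSO against 2.57, 2.32 and 2.46 times with SD70. The log2 ratio was higher by 0.66 with SD70. This ratio and the other within-sample ratios below belong to 6 pairs of related genes chosen after their values were seen, and no test is given for them. Ccna2, the cyclin of S phase and G2, had 4351, 4248 and 4423 counts with DMSO against 3614, 3509 and 3592 with SD70, a fall of 0.28 (SE 0.0483, adjusted p = 6.22e-06).

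Cdk1, the kinase that these cyclins activate, had 2003, 2146 and 2187 counts with DMSO against 1672, 1718 and 1621 with SD70. It fell by 0.34 (SE 0.0536, adjusted p = 1.63e-06), with no overlap. Aurka, the Aurora kinase of centrosomes and spindle poles, had 1616, 1566 and 1706 counts against 1165, 1246 and 1259, and it fell by 0.41 (SE 0.0561, adjusted p = 9.48e-08). Cks2 encodes a small protein that binds cyclin-dependent kinases, and its groups overlapped, with 1037, 1149 and 1236 counts with DMSO against 1015, 1051 and 907 with SD70. It passed with a fall of 0.20 (SE 0.0655, adjusted p = 0.00849), but not without DMSO replicate 2 (0.0204), DMSO replicate 3 (0.0784), SD70 replicate 1 (0.0189) or SD70 replicate 3 (0.0628). Cdc25c, a phosphatase that activates CDK1, was the least abundant of the 8 by count, with 330, 334 and 346 against 281, 318 and 295, and its log2 fold change of -0.18 did not pass (SE 0.0828, adjusted p = 0.0644).

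Both transcription factors of the list fell. Foxm1, a forkhead factor that acts on G2 and M phase genes, had 1413, 1377 and 1343 counts with DMSO against 1042, 1059 and 1026 with SD70, and it fell by 0.40 (SE 0.0555, adjusted p = 1.38e-07). Mybl2, which encodes B-MYB, had 1834, 1830 and 1884 against 1483, 1607 and 1531, a fall of 0.26 (SE 0.0534, adjusted p = 6.93e-05). Neither gene overlapped between the groups.

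Of the 5 spindle checkpoint members 3 fell, with a median of -0.17, and 1 of them stood well apart. Bub1b (gene 12236, chr2:118598202-118641592), which encodes BUBR1, a part of the mitotic checkpoint complex, had 3149, 3210 and 3154 counts with DMSO against 1912, 1933 and 1756 with SD70. It fell by 0.76 (SE 0.0518, adjusted p = 8.58e-15). Bub1, a checkpoint kinase that recruits BUBR1 to kinetochores, had 4313, 4414 and 4345 against 3651, 3350 and 3151, a smaller fall of 0.36 (SE 0.0523, adjusted p = 2.81e-07). Within each sample Bub1 had 1.37, 1.38 and 1.38 times the count of Bub1b with DMSO, and 1.91, 1.73 and 1.79 times with SD70.

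The other checkpoint genes differed less. Mad2l1, which encodes MAD2, the inhibitor of CDC20, had 2221, 2200 and 2231 counts with DMSO against 2125, 1951 and 1837 with SD70. It passed with a fall of 0.17 (SE 0.0546, adjusted p = 0.00802), but lost the call without DMSO replicate 1 (0.0193), DMSO replicate 2 (0.0157), DMSO replicate 3 (0.0204), SD70 replicate 2 (0.0279) or SD70 replicate 3 (0.0586). Bub3, which binds BUB1 and BUBR1, had 1534, 1555 and 1636 against 1489, 1573 and 1515, with an adjusted p of 0.481. Ttk, the MPS1 kinase at the top of the checkpoint, had 535, 486 and 500 against 536, 451 and 411, with an adjusted p of 0.212. In both genes the groups overlapped.

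At anaphase onset, 2 of 3 members fell. Espl1 (gene 105988, chr15:102296254-102324357), which encodes separase, the protease that cuts cohesin, had 1538, 1392 and 1418 counts with DMSO against 991, 992 and 947 with SD70, and it fell by 0.57 (SE 0.0577, adjusted p = 1.95e-10). Pttg1, which encodes securin, the inhibitor of separase, had 901, 1006 and 947 against 672, 824 and 627, a fall of 0.42 (SE 0.0784, adjusted p = 6.73e-05). Cdc20, the checkpoint's target, had 1583, 1478 and 1633 against 1299, 1474 and 1415. The Cdc20 groups came within a few counts of each other without overlapping, and its log2 fold change of -0.17 did not pass (SE 0.0578, adjusted p = 0.014). It did pass without DMSO replicate 2 (adjusted p = 0.00646) and without SD70 replicate 2 (0.00723).

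All 3 members of the chromosomal passenger complex fell, by very different amounts. Aurkb (gene 20877, chr11:69045624-69051664), its kinase, which corrects wrong attachments of chromosomes to the spindle, had 1648, 1550 and 1658 counts with DMSO against 867, 873 and 809 with SD70. It fell by 0.93 (SE 0.0576, adjusted p = 7.72e-16), from 1619 ± 59.6 to 849 ± 35.4 (SD, n = 3). Incenp, the scaffold of the complex, had 2643, 2596 and 2537 against 1855, 1834 and 1814, a fall of 0.50 (SE 0.0507, adjusted p = 2.09e-10). Birc5, which encodes survivin, the subunit that brings the complex to centromeres, had 1617, 1540 and 1579 against 1421, 1358 and 1282, a fall of 0.22 (SE 0.0553, adjusted p = 0.000837). The Aurora kinases A and B had almost equal counts with DMSO, with Aurka at 0.98, 1.01 and 1.03 times the count of Aurkb, and unequal ones with SD70, at 1.34, 1.43 and 1.56 times.

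The kinetochore and centromere genes moved in both directions, with 3 of 5 lower and 1 higher, beside 24.2% and 25.8% of all genes tested. Ndc80 (gene 67052, chr17:71496100-71526857), the microtubule-binding subunit of the outer kinetochore, had 1160, 1152 and 1213 counts with DMSO against 1559, 1350 and 1451 with SD70. It rose by 0.31 (SE 0.0584, adjusted p = 2.97e-05), from 1175 ± 33.4 to 1453 ± 105 (SD, n = 3), and it rose by 0.25 to 0.36 with any of the 6 samples left out. Nuf2, whose protein pairs with NDC80 in the same complex, went the other way, with 1450, 1501 and 1471 counts against 1371, 1189 and 1278. The fall of Nuf2 was 0.20 (SE 0.0574, adjusted p = 0.00256), and its call was lost without DMSO replicate 2 (0.0116) or SD70 replicate 2 (0.0346). Ndc80 was below Nuf2 in every DMSO sample, at 0.8, 0.767 and 0.825 times its count, and above it in every SD70 sample, at 1.14 times in each.

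Cenpa (gene 12615, chr5:30666877-30674837), the histone H3 variant that marks centromeres, had 1909, 1702 and 1776 counts with DMSO against 1212, 1233 and 1245 with SD70, and it fell by 0.55 (SE 0.0558, adjusted p = 2.32e-10). Cenpf, a large kinetochore protein that accumulates in G2, had 4004, 3860 and 3463 against 3109, 2806 and 2794, a fall of 0.38 (SE 0.0557, adjusted p = 5.57e-07). Cenpe, the kinetochore motor that moves chromosomes to the spindle equator, had 3314, 3081 and 2810 against 3294, 2869 and 2854. Its groups overlapped throughout and its log2 fold change was -0.03 (SE 0.0611, adjusted p = 0.699).

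Of the 6 spindle motors and spindle proteins 4 fell, with a median of -0.28. Nusap1, which bundles microtubules near chromosomes, had 2386, 2188 and 2327 counts with DMSO against 1577, 1493 and 1347 with SD70, and it fell by 0.64 (SE 0.0575, adjusted p = 1.05e-11). Tpx2, the activator of Aurora A, fell by 0.33 (SE 0.0506, adjusted p = 1.04e-06), from 4547 ± 165 to 3622 ± 169 (SD, n = 3). The depolymerising kinesin Kif2c fell by 0.35 (SE 0.0592, adjusted p = 4.09e-06) and the chromosome-bound kinesin Kif4 by 0.23 (SE 0.053, adjusted p = 0.00031). Kif11, the motor that pushes spindle poles apart, had 4620, 4519 and 4207 counts with DMSO against 4372, 4119 and 4054 with SD70, and its log2 fold change of -0.09 did not pass (SE 0.0509, adjusted p = 0.13). Kif18a, a kinesin that dampens chromosome movements, stood at 0.04 (SE 0.0701, adjusted p = 0.646), with overlapping groups.

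All 5 members of the central spindle and cytokinesis group fell, within a narrow range of -0.53 to -0.27. Kif20a, the kinesin that carries the passenger complex to the central spindle, had 2143, 2243 and 2318 counts with DMSO against 1604, 1553 and 1487 with SD70, and it fell by 0.53 (SE 0.0537, adjusted p = 1.98e-10). Kif23, the motor of the centralspindlin complex, fell by 0.42 (SE 0.0525, adjusted p = 2.18e-08). Prc1, which cross-links the microtubules of the midzone, fell by 0.38 (SE 0.0524, adjusted p = 1.23e-07). Anln, the anillin scaffold of the contractile ring, had 8998, 8676 and 8659 counts against 7551, 6911 and 7143, a fall of 0.29 (SE 0.0489, adjusted p = 6e-06), and Ect2, the exchange factor that activates RhoA at the furrow, fell by 0.27 (SE 0.0553, adjusted p = 7.68e-05). Kif20a shares 1271 exonic bases with Cdc23 on the opposite strand, Prc1 shares 911 with Rccd1 and Kif4 shares 832 with Pdzd11 (GENCODE M21). Of the other members, Cdc25c shares 623 bases with Gm3550, Ccna2 510 with Exosc9, Nusap1 172 with Oip5, Plk1 156 with Gm44985, Cdc20 53 with Elovl1 and Kif18a 11 with Mettl15, all on opposite strands. Since it is not stated whether counting used strand, reads of these partners cannot be told apart there. On the same strand, Foxm1 shares 144 bases with Tex52 and 97 with Gm44596, and Top2a shares 122 with the snoRNA gene Gm23451, where strand would not separate the reads either. Cdc23 itself had a log2 fold change of 0.03 (adjusted p = 0.702).

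Both genes of mitotic chromosome structure fell. Top2a, the topoisomerase that untangles sister chromatids, had 16166, 15455 and 15525 counts with DMSO against 12762, 11868 and 11494 with SD70, a fall of 0.38 (SE 0.0493, adjusted p = 3.22e-08). Mki67, which encodes the Ki-67 protein that coats mitotic chromosomes and is widely used as a marker of proliferating cells, had 13911, 12356 and 11887 against 9479, 7407 and 7252. The groups of Mki67 did not overlap, and replicate 1 was the highest in each. It fell by 0.66 with the widest error of the list (SE 0.128, adjusted p = 0.00685). The call of Mki67 was lost without DMSO replicate 1 (adjusted p = 0.0132), DMSO replicate 2 (0.0167), SD70 replicate 2 (0.0196) or SD70 replicate 3 (0.0209), with log2 fold changes from -0.69 to -0.59. Blocked on replicate number, Mki67 passed at an adjusted p of 1.41e-15, with a log2 fold change of -0.67.

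An exact permutation test over the 6 samples of a single gene cannot go below p = 0.1 (two-sided) with 3 samples per group, so the calls above rest on the model across all genes and not on that test.

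Levels per gene length, as FPKM (fragments scaled to gene length and library size), put the members in order. With DMSO, Top2a was highest at 191 ± 4.76 FPKM, followed by Cks2 at 133 ± 8.85, Ccnb2 at 114 ± 3.02 and Ccnb1 at 113 ± 5.45, the last pair lying within their spread. Kif18a was lowest at 9.9 ± 0.309 FPKM, next to Ttk at 11.4 ± 0.567 and Cdc25c at 11.7 ± 0.246, and Ttk and Cdc25c also lay within their spread. With SD70, Top2a remained highest at 143 ± 7.55 FPKM, and Ccnb1 at 118 ± 1.02 and Cks2 at 115 ± 7.21 followed within their spread, while Ccnb2 had dropped to rank 9 at 76 ± 3.22. Plk1 and Aurkb, neighbours at ranks 21 and 20 with DMSO, went from 54.5 ± 1.35 and 54.9 ± 1.87 FPKM to 26.6 ± 2.37 and 28.2 ± 1.12. Ndc80 moved from rank 29 at 35.3 ± 0.78 FPKM to rank 19 at 42.8 ± 3.06, and Espl1 went from 13.5 ± 0.688 FPKM at rank 36 to 8.89 ± 0.257 at rank 39, the lowest of the list (SD, n = 3 throughout).

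**Figure D3:**
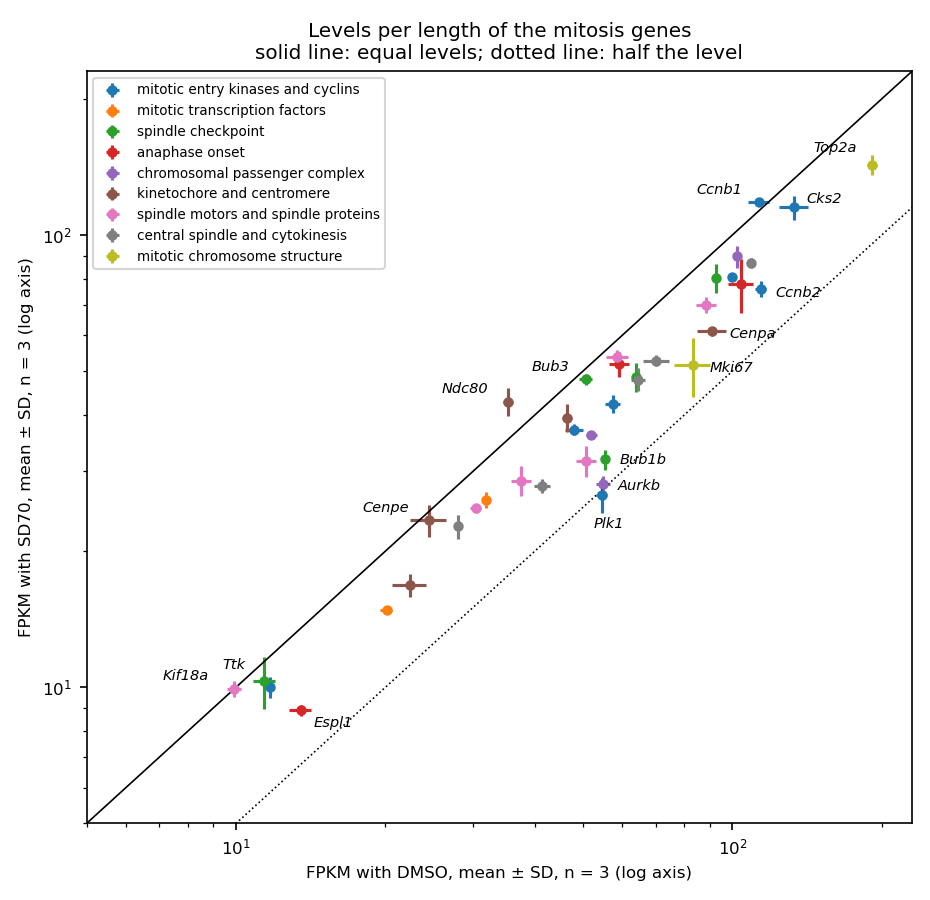
FPKM with SD70 (y axis) against FPKM with DMSO (x axis), both log axes, mean and SD of 3 samples, 1 point per gene coloured by role. Most points lie under the line of equal levels, Plk1 (54.5 to 26.6 FPKM) and Aurkb (54.9 to 28.2) lie near the dotted line, drawn at 50% of the DMSO level, and Ndc80 (35.3 to 42.8) and Ccnb1 (113 to 118) lie above equality.

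The promoters of the members were read for the letters TTTGAA, the core of the cell cycle homology region, or CHR, through which the MuvB complex acts on G2 and M phase genes, and for CCAAT, bound by NF-Y. The window ran from 250 bases before to 50 bases after the RefSeq start (GRCm38.p6), and both strands were searched. An entry was found for 32 of the 39 members, and Ccna2, Cdc25c, Foxm1, Aurkb, Incenp, Tpx2 and Kif20a had none. The letters TTTGAA were in 21 of 32 windows (65.6%), against 14.4% of the 9284 tested genes with an entry and 20.2% of all 27025 genes in the table. In 19 of 32 (59.4%) they began within 50 bases of the start, against 3.83% of the tested genes. CCAAT was in 22 (68.8%) against 44.3%, and the related TTCGAA in 3 (9.38%) against 2.59%. These matches are descriptions of the sequence and say nothing of binding in these cells. The sequences below run 5′ to 3′ on the strand of the gene, with the motif in capitals, and the first set is shown because these members fell by at least 0.5 and carry the motif.
Plk1, chr7:122159453-122159482, plus strand: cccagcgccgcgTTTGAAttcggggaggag
Bub1b, chr2:118598239-118598260, plus strand: agagacgttaaaTTTGAAactt
Mki67, chr7:135716460-135716489, minus strand: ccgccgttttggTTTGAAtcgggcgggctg
Espl1, chr15:102296254-102296283, plus strand: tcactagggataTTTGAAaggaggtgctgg
Ccnb2, chr9:70421533-70421562, minus strand: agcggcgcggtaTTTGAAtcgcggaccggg
Cenpa, chr5:30666890-30666919, plus strand: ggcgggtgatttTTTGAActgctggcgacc
The match nearest the start began 30 bases after the start in Plk1, 40 after it in Bub1b, 4 after it in Ccnb2 and 16 after it in Cenpa, and at -27 in Espl1 and -98 in Mki67. The start is that of the promoter entry, which can differ from the end of the gene span printed above. In Espl1 the match lies inside the printed span, which opens at 102296254. The counts within 50 bases depend on this choice of start. The second set holds the members with the motif that rose or did not pass the test, of which all but Cdc20 carry it as its reverse complement TTCAAA.
Cdc20, chr4:118437344-118437373, minus strand: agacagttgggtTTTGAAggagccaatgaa
Ttk, chr9:83834684-83834713, plus strand: cagcggggaaatTTCAAAcgtgtttccgga
Kif11, chr19:37376351-37376380, plus strand: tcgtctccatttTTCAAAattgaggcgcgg
Bub3, chr7:131560315-131560344, plus strand: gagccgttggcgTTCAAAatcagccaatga
Ndc80, chr17:71526811-71526840, minus strand: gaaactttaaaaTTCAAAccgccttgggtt

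Members with and without the letters TTTGAA fell. Of the 21 with them 16 fell, 1 rose and 4 did not pass, with a median log2 fold change of -0.38, and of the 11 without them 8 fell and 3 did not pass, with a median of -0.20. Ccnb1, which did not pass, had no TTTGAA in its window. By strand, which was looked at after the values were known, 15 of the 16 members with the motif on the strand of the gene fell, and so did 1 of the 5 with it on the opposite strand alone. The same split ran the other way in 91 further mitosis genes, where 9 of 24 with the motif on the gene's strand fell (37.5%) and 9 of 14 with it on the opposite strand alone fell (64.3%). Over all tested genes 25.4%, 22.1% and 24.5% fell with the motif on the gene's strand, on the opposite strand alone and without it. No test was made of these splits.

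**Figure D4:**
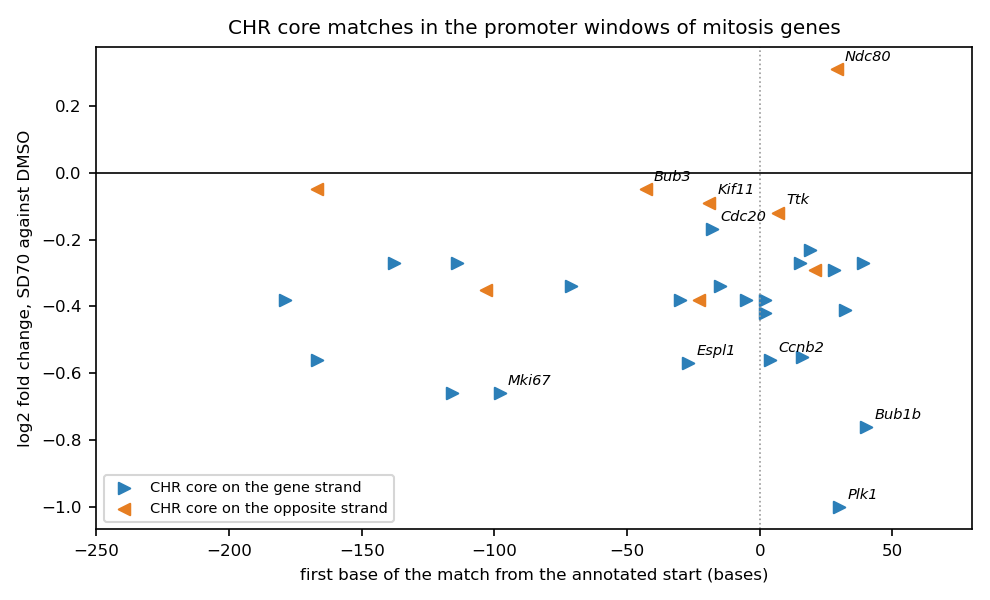
Log2 fold change of SD70 against DMSO (y axis) by the distance in bases of each match to the CHR core from the RefSeq start (x axis), for the 21 members that have it, marked by strand, some members having several matches. Most matches lie within 50 bases of the start, and Ndc80, which rose by 0.31, and Plk1, which fell by 1.00, carry it at nearly the same distance, 29 and 30 bases after the start, on opposite strands.

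Other genes of the cell cycle were described beside the members. In a list of 104 further mitosis genes 35 fell (33.7%) and 22 rose (21.2%), with a median log2 fold change of -0.09, where 24.2% of all genes tested fell and 25.8% rose. The rises numbered 14 without DMSO replicate 3, with library totals alone and in limma on FPKM with either pseudocount. The spindle and cytokinesis genes of that list came closest to the members, with 20 of 28 lower (71.4%), 3 higher (10.7%) and a median of -0.32. The other kinetochore and checkpoint genes did not, with 5 of 37 lower (13.5%), 10 higher (27%) and a median of -0.00. The subunits and partners of the anaphase-promoting complex had 5 of 18 lower (27.8%) and 2 higher (11.1%), with a median of -0.11, and cohesin and condensin genes had 5 of 21 lower (23.8%) and 7 higher (33.3%), with a median of 0.03. The difference between these lists was not tested.

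The further mitosis genes with the largest changes were Ncapd2, a condensin I subunit, at -0.85 (adjusted p = 1.01e-15, from 2603 ± 51.1 to 1439 ± 72.5), and Anapc16, a subunit of the anaphase-promoting complex, at 0.74 (adjusted p = 1.35e-11, from 527 ± 30.6 to 878 ± 40.3). Ncaph2, a condensin II subunit, followed at -0.70, then Cdc25b, a phosphatase that activates CDK1, at -0.68, Sgo2a, which protects centromeric cohesin, at -0.67 and the kinesin Kif18b at -0.65, with adjusted p-values of 8e-12, 1.77e-13, 3.56e-12 and 4.41e-11.

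Of the S phase genes, which are used earlier in the cycle, 8 of 41 fell (19.5%) and 9 rose (22%), shares near those of all genes tested (24.2% and 25.8%), with a median of -0.02. Without DMSO replicate 2 the number that fell was 5. Those that changed most were Tk1, the thymidine kinase, at -0.69 (adjusted p = 2.88e-11, from 1071 ± 47.5 to 665 ± 48.8), and Mcm10, a replication initiation factor, at 0.60 (adjusted p = 6.56e-11, from 961 ± 56.8 to 1461 ± 53.2). The flap endonuclease Fen1 stood at -0.52, cyclin E1 (Ccne1) at -0.44, and the chromatin assembly subunits Chaf1b at 0.47 and Chaf1a at -0.38, with adjusted p-values of 6.65e-09, 9.22e-06, 1.76e-07 and 3.92e-07.

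A further list of 23 genes held CDK inhibitors (Cdkn1a, Cdkn1b, Cdkn1c), kinases that hold back mitotic entry (Wee1, Pkmyt1, Chek1, Chek2), stress and antiproliferative genes (Gadd45a, Gadd45b, Gadd45g, Sfn, Btg2, Ccng1, Ccng2), and factors of the DREAM complex and related E2F factors (Rbl1, Rbl2, E2f4, E2f7, E2f8, Lin9, Lin37, Lin52, Lin54). The Lin genes encode MuvB subunits, which repress these promoters within DREAM and activate them with MYBL2, so the list is not one of inhibitors alone. Of the 23 genes 21 could be tested, and 11 fell (52.4%) and 6 rose (28.6%), with a median of -0.22, beside the same 24.2% and 25.8% of all genes tested. Of the MuvB subunits Lin9 rose by 0.27 (adjusted p = 0.00116), Lin37 fell by 0.54 (adjusted p = 0.00122), and Lin52 at 0.21 and Lin54 at 0.03 did not pass (adjusted p = 0.0672 and 0.723). Gadd45a, a stress-induced gene whose protein can inhibit CDK1 with cyclin B, had 916, 821 and 835 counts with DMSO against 4784, 4717 and 5601 with SD70, and it rose by 2.55 (SE 0.0644, adjusted p = 2.44e-23). Cdkn1a, which encodes the CDK inhibitor p21, had 3507, 2971 and 3266 against 1294, 1309 and 1110, and it fell by 1.39 (SE 0.065, adjusted p = 1.03e-15). Both thus changed more than any of the 39 mitosis genes, in opposite directions. Ccng2, which encodes the atypical cyclin G2, fell by 1.19 (adjusted p = 3.94e-14). The antiproliferative Btg2 rose by 0.89 (adjusted p = 1.98e-06, from 63.6 ± 6.33 to 118 ± 2.99), and Chek1, the checkpoint kinase of DNA replication stress, rose by 0.68 (adjusted p = 3.76e-11, from 636 ± 8.79 to 1022 ± 78.3). Gadd45g stood at -1.05 with few counts, 22.9 ± 3.96 against 11 ± 1.88, and an adjusted p of 0.00384 that was lost with any of 5 samples left out.

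**Figure D5:**
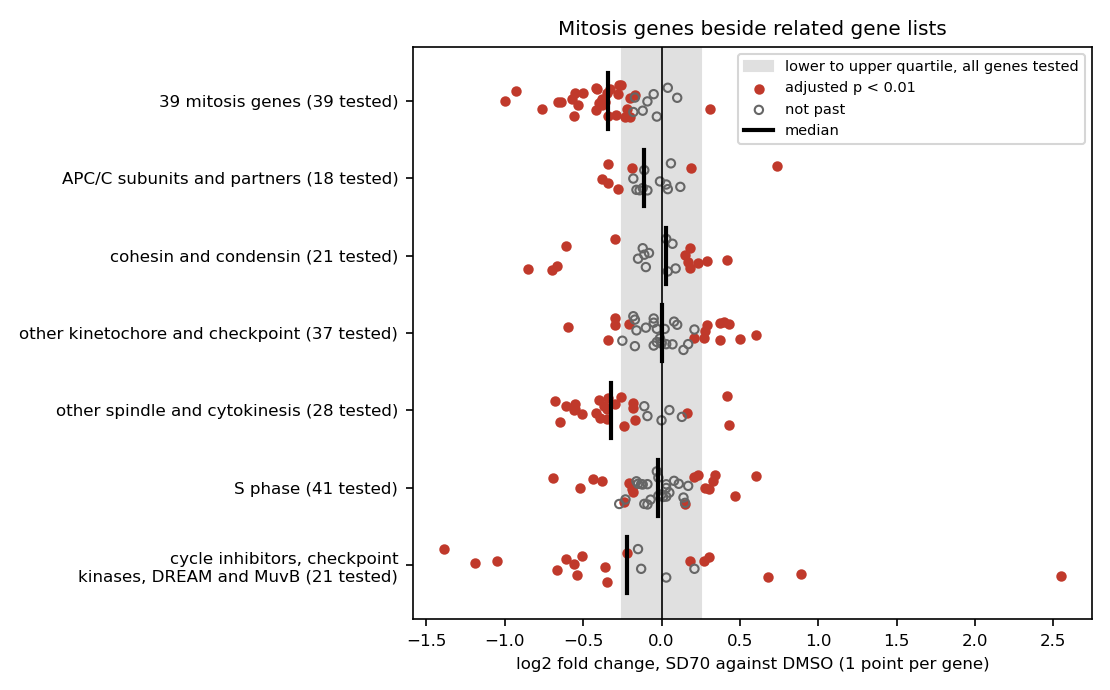
Log2 fold change of SD70 against DMSO (x axis), 1 point per gene, for the 39 mitosis genes and 6 related lists (y axis), filled where the adjusted p is under 0.01, with the median as a bar and the quartiles of all genes tested in grey. The medians of the mitosis genes (-0.34) and of the other spindle and cytokinesis genes (-0.32) lie left of the grey band, and Gadd45a lies far to the right at 2.55.

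Kdm4c, the gene of the enzyme that SD70 is meant to inhibit, had 782, 715 and 761 counts with DMSO against 802, 734 and 760 with SD70, a difference of 0.02 (SE 0.0638, adjusted p = 0.769). An inhibitor of the protein need not change this RNA, so it does not check the labels. Of 24 markers of immune, fibroblast, endothelial and epithelial cells 21 were listed and 8 passed the filter on low counts. Krt8, Krt18, Pdgfra and Dcn fell, 4 of the 8 (50%), where 24.2% of all genes tested fell. The summed deposited counts of 7 leukocyte markers were 27 to 44 with DMSO against 28 to 46 with SD70, and Ptprc and Csf1r had at most 2 counts in every sample. The epithelial markers Epcam, Cdh1, Krt19 and Sftpc had at most 1 count, whereas the keratin gene Krt8 had 3925, 4150 and 4060 with DMSO against 2498, 2875 and 2382 with SD70. The 6 epithelial markers summed to 4019 to 4228 with DMSO against 2414 to 2916 with SD70. The 8 fibroblast and endothelial markers summed to 2913 to 3001 with DMSO against 1689 to 1940 with SD70. Of these, Col1a1, Col1a2, Pecam1 and Kdr had at most 11 counts. Pdgfra had 1848, 1750 and 1833 with DMSO against 914, 865 and 767 with SD70, and Dcn had 1066, 1064 and 1020 against 919, 865 and 807. The other tested markers did not pass. Lyz2, a macrophage marker, had normalised counts of 11.7, 10.7 and 14.4 with DMSO against 26.4, 20.9 and 16.5 with SD70, a difference of 0.79 on the log2 scale (adjusted p = 0.0256), and Cd79a, a B cell marker, stood at -0.79 (adjusted p = 0.0922). Lum stood at 0.46 (adjusted p = 0.0827), with all 3 SD70 samples above the DMSO samples, and Cdh5 at 0.14 (adjusted p = 0.503), with overlapping groups. The part of these genes in the falls of the mitosis genes was not tested.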

How the data were processed

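RNA-seq was analysed in 3 DMSO and 3 SD70 samples of Lewis cells, grouped by their labels. The authors aligned clean BGISEQ-500 reads to GRCm38.p6 with HISAT and deposited, per gene and sample, an expected count, which is not normalized and need not be whole. A second column deposited by the authors was read as FPKM, from its values. The submitters' processing notes name StringTie 1.3.3b and mm8, which differs from the build in the study's methods. The tool and strand setting of counting are not given in the sources used here. Coordinates are those of RefSeq on GRCm38.p6, matched by gene ID.

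Expected counts were rounded, filtered by filterByExpr (11552 of 16081 genes kept), scaled by TMM (factors 0.984 to 1.02) and tested with edgeR 4.0.16 in R 4.3.3 (robust quasi-likelihood fit, no covariates, Benjamini-Hochberg over all genes tested). Normalised counts are given for a library of 16559245, the mean of the 6 effective library sizes. Of the members, Ccna2, Cenpf and Kif20a had counts that were not whole. Totals were 15276744 to 17060424 counts. Relative counting error is largest for the members with the fewest counts, Cdc25c, Ttk and Kif18a (means of 337, 507 and 518 with DMSO). Precision is also limited by 3 samples per group. Replicates differed by more than sampling noise (chi-square per gene 2.12 to 4.97), so all 6 were kept. Only the default forms of the edgeR, DESeq2 and limma fits were tried on simulated data. The replicate block, the other scalings and count filters, the smaller limma pseudocount and FPKM as input were not tried there.

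Members and lists were chosen with earlier results of these data known. All 39 members are named, as are the up to 6 genes of each other list with an adjusted p under 0.01 and the largest changes. The cell type markers are given as counts.

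Same-numbered samples deviated together (r = 0.186, 0.305 and 0.185 over 9623 genes, other pairs -0.226 to 0.0111), so the numbers pair the samples by these correlations, although no label says that they were handled together. The study states no block, and the main fit has none. Alternatives were a replicate block, other scalings and count filters, DESeq2 1.42.0, limma 3.58.1 on log2 FPKM (pseudocounts 1 and 0.1), and leaving out each sample.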

Additional observations from a re-analysis of the deposited data

How the results depend on the processing

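Over 14 alternatives, 32 of the 39 mitosis genes kept their direction and their side of the threshold. Their count of falls ranged from 27 to 31 and their median log2 fold change from -0.38 to -0.31. With the replicate block, 30 members fell and 1 rose, with a median of -0.34, and no member's call changed. With a fold limit of 1 as well, the count was 0 to 1 when a sample was left out, and it was 0 without DMSO replicate 1, SD70 replicate 1 or SD70 replicate 3, since Plk1 sits at that limit. Cks2 and Mad2l1 also lost their calls under DESeq2 (adjusted p = 0.0188 and 0.0115). Cdc25c passed in limma with a pseudocount of 0.1 (adjusted p = 0.00987). Cdc20 passed with library totals alone (0.00304), with a minimum of 1 count (0.00873) and with a minimum of 10 counts in every sample (0.00899). Neither is called lower in the report.

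Of the further mitosis genes, 14 rose with library totals alone and in limma with either pseudocount, and 14 to 19 with a sample left out, the fewest without DMSO replicate 3. The S phase genes that fell numbered 5 to 10, the fewest without DMSO replicate 2. With a sample left out Cenpe, at -0.03, ranged from -0.10 to 0.03: 0.03 without DMSO replicate 1, 0.01 without SD70 replicate 2 and 0.00 without SD70 replicate 3. Kdm4c, at 0.02, turned to -0.01 with library totals alone, in limma with either pseudocount and without SD70 replicate 1, and to -0.02 without DMSO replicate 2, with up to 0.06 when another sample was left out. Where no value shows it, the cause of these shifts was not tested. The scalings moved the median of all genes by less than 0.1. The effect of depth on the members' calls was not tested. Gadd45g, which is not a member and had few counts, also lost its call under DESeq2 (adjusted p = 0.029).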
